A study of Mus musculus with 9 samples.

Results

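The 40 genes described here carry out the secretory pathway of the endoplasmic reticulum and its stress response, the unfolded protein response. They are a list of named genes, and the rule uses no measured value: 10 stress sensors and transcription factors, 15 chaperones and folding factors, and 15 genes of protein entry, export and retrieval. The members were, however, chosen with earlier results of these data known. All 40 were found among the 43472 genes of the count table, and all 40 were among the 14257 genes that passed the filter on low counts and were tested. The data were 9 RNA-seq libraries from skeletal tissue of C57BL/6J mice, with no treatment or genetic change named in the labels. The groups were immature cartilage with immature chondrocytes (ImC), mature cartilage with mature chondrocytes (MatC) and bone with osteoblasts (Bone), with 3 libraries each. The sources used here name no age or anatomical site. They also do not state whether the 3 libraries of a group came from different mice, and if not, the p-values cover technical spread only.

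Chondrocytes and osteoblasts secrete large amounts of collagen and other matrix proteins, and each of these proteins enters the endoplasmic reticulum through the Sec61 channel. There it is folded by chaperones such as Hspa5 (BiP) and, for collagens, Serpinh1 (HSP47), and then packed into vesicles with a COPII coat made of Sar1, Sec23 with Sec24, and Sec13 with Sec31. Unfolded proteins are sensed by Ern1 (IRE1), Eif2ak3 (PERK) and Atf6, which act through Xbp1, Atf4 and Atf6 itself. Creb3l1 (OASIS) and Creb3l2 (BBF2H7) are membrane-bound relatives of Atf6. Creb3l1 is known from osteoblasts, where it acts on the type I collagen gene Col1a1, and Creb3l2 is known from chondrocytes, where it acts on the coat gene Sec23a.

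Promoter sequences were read for the members because these factors bind short motifs near the start sites of secretory genes. RefSeq (GRCm38.p6) gave 36 promoters for 34 of the 40 members, each from 250 bases before the start site to 50 after it. Lman1, Creb3l1, Sec61a1, Atf6, Kdelr2 and Manf had no entry. The motifs were searched on both strands. The stress element ERSE, spelled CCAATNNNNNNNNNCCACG, was found in 6 of the 14 chaperone promoters, those of Hspa5, Hsp90b1, Calr, Canx, Dnajc3 and Pdia6, and in 0.119% of the 32851 promoters in the table. It was found in 0 of the 14 promoters of entry, export and retrieval genes. Its relative ERSE-II, which joins the same boxes without the long gap and with the CCAAT box reversed, was found in Herpud1 and Dnajb11 among the members and in 0.0365% of all promoters. The following windows show ERSE or ERSE-II in capitals, 5′ to 3′ on the strand of the gene.
Hspa5, chr2:34772005-34772063, plus strand: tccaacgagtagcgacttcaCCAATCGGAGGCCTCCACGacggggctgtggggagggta
Hsp90b1, chr10:86705618-86705676, minus strand: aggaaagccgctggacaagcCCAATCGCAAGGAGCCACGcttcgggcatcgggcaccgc
Calr, chr8:84847055-84847113, minus strand: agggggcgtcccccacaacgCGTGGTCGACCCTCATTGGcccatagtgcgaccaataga
Pdia6, chr12:17266471-17266529, plus strand: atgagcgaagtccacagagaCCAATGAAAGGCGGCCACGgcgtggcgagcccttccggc
Herpud1, chr8:94386357-94386407, plus strand: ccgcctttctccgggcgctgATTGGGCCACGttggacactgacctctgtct
Dnajb11, chr16:22857843-22857871, plus strand: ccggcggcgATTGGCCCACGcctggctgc
The Calr motif runs on the opposite strand of the gene, so its reverse complement is in capitals. Hsp90b1 held a second ERSE, also on the opposite strand.

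The motif UPRE, spelled TGACGTGG, gave a different set. It was found in 3 of the 14 promoters of entry, export and retrieval genes, those of Sec24d, Sec23a and Kdelr3, in 0 of the 14 chaperone promoters and in 0.676% of all promoters in the table. These windows carry UPRE in capitals.
Sec24d, chr3:123267450-123267495, plus strand: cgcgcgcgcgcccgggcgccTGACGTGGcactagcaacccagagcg
Sec23a, chr12:59011993-59012022, minus strand: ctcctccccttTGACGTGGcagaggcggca
Kdelr3, chr15:79516358-79516405, plus strand: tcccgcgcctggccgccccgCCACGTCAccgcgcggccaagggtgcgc
In Kdelr3 the motif runs on the opposite strand. The cAMP response element CRE, spelled TGACGTCA, was in no member promoter and in 1.79% of all promoters. The Atf4 element CARE, spelled TGATGCAA, was in the promoter of Herpud1 and in 0.895% of all promoters. These matches describe the letters of the reference in these windows only.

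Depth and RNA composition differed between libraries. The shallowest library held 7913684 counts and the deepest 23159547. Mitochondrially encoded genes held 32.0% to 55.0% of the counts in ImC, 33.7% to 82.3% in MatC and 7.24% to 8.91% in Bone. Levels below are counts per 1000000 reads (CPM), scaled with the TMM method (trimmed mean of M values) and given for replicates 1, 2 and 3 in that order. MatC replicate 3 (MatC3) was shallow, with 3 reads worth 0.849 CPM, against 0.257 CPM or less elsewhere. ImC replicate 3 (ImC3) held the lowest level of all 9 libraries for 25 of the 40 members (62.5%), against 25.5% of all genes tested. The labels were checked against defining markers. Col2a1, the cartilage collagen, stood at 8402, 8574 and 9782 CPM in ImC and was also high in MatC, as given below. Col10a1, the collagen of mature cartilage, stood at 817, 933 and 4760 CPM in MatC and 0.750, 0.447 and 0.427 CPM in ImC. At an adjusted edgeR p under 0.05, 2 of 13 immature chondrocyte markers were lower in MatC than in ImC (2.29% of all genes). They summed to 18050 to 24670 CPM in ImC and 11980 to 26990 in MatC. Of 12 mature (hypertrophic) chondrocyte markers, 9 were higher there (5.41%). These summed to 5821 to 14460 CPM in MatC and 18740 to 24150 in Bone. Against MatC, Bone had 0 of them higher and 5 lower. Col1a1 stood at 19750, 23190 and 20610 CPM in Bone, but the osteoblast gene Bglap did not pass 3.14 CPM in any library. Of 13 osteoblast markers, Bglap among them, 13 were higher in Bone against ImC at an adjusted edgeR p under 0.05 (14.3% of all genes). Against MatC 3 were (1.36% of all genes). The 13 summed to 972 to 2189 CPM in ImC, 1906 to 29160 in MatC and 88490 to 105500 in Bone. MatC held osteoblast transcripts in unequal amounts, with Col1a1 at 1487, 7726 and 164 CPM. In bulk RNA, fewer cells of a type and less RNA per cell cannot be told apart.

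The share of the 40 genes that was called was close to that of all genes in each comparison: 5% against 7.71% for MatC against ImC, 5% against 6.05% for Bone against MatC, and 30% against 31.1% for Bone against ImC. A gene was called when its p-value from edgeR's quasi-likelihood test, adjusted by the Benjamini-Hochberg method over all genes tested, was under 0.05. Between MatC and ImC, 1 member was called higher and 1 lower (5.41% and 2.29% of all genes). Between Bone and MatC, 2 were called higher and 0 lower (1.36% and 4.69% of all genes), and DESeq2 called 7 higher and 1 lower (4.76% and 9.07% of all genes). At an unadjusted edgeR p under 0.05, 7 were higher and 1 lower, with 22.7% of all genes in either direction. That rule gave 5 higher and 1 lower for MatC against ImC (24.9% of all genes) and 14 higher and 1 lower for Bone against ImC (43.6%). DESeq2 called 2 higher and 1 lower for MatC against ImC (9.67% and 6.03% of all genes) and 12 higher and 1 lower for Bone against ImC (19.2% and 20.4%). The 2 edgeR calls between Bone and MatC fell to 0 without any single Bone library and to 1 without ImC1, ImC2, MatC1 or MatC3, and became 5 without ImC3. Between Bone and ImC, 11 were called higher and 1 lower (14.3% and 16.8% of all genes), and without Bone replicate 3 the number higher was 7; with scaling by library size only it was 2, with 0 lower. The share of all called genes that were higher was 70.2%, 22.5% and 46.0% in that order, and 53.4%, 40.1% and 59.0% with scaling by library size only; with DESeq2 it was 34.4% between Bone and MatC. Median log2 fold changes of the 40 were 0.26, 0.26 and 0.56, beside 0.03, -0.03 and -0.02 for all genes tested. Comparisons that share a group of libraries are not independent of each other.

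**Figure D1:**
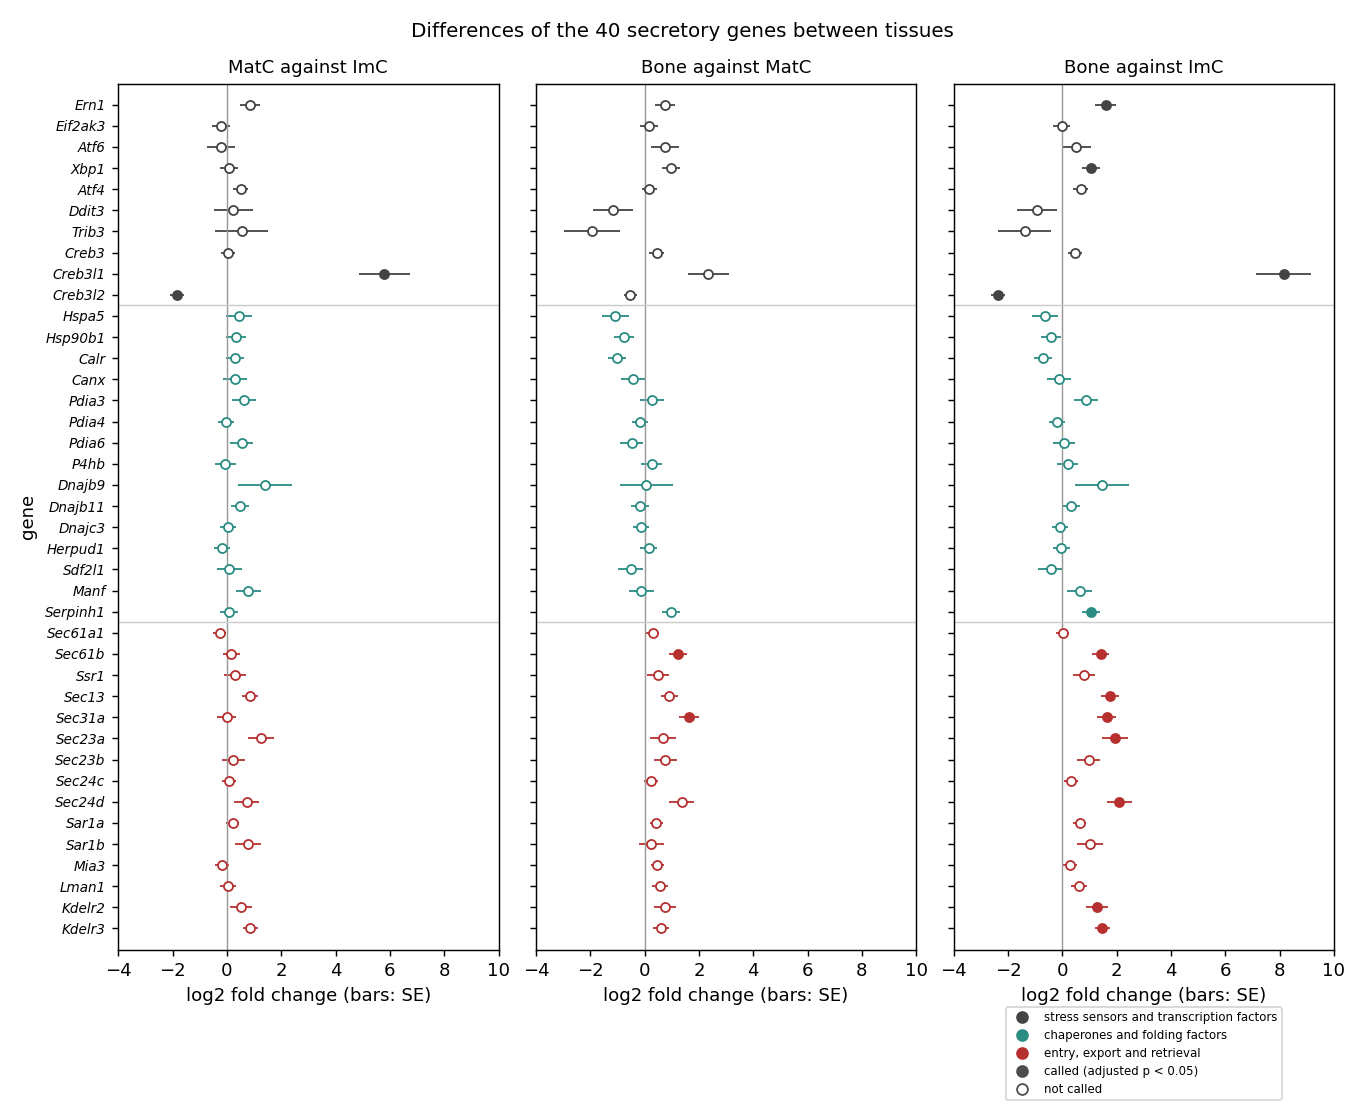
Log2 fold change (x axis, bars are SE) of each of the 40 genes (y axis) in the 3 comparisons, 3 libraries a group; filled points passed edgeR's adjusted p threshold of 0.05. Creb3l1 and Creb3l2 lie far out on opposite sides in the comparisons with ImC, and all 15 entry, export and retrieval genes (red) lie to the right of 0 in both comparisons of Bone.

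Among the sensors and transcription factors, Creb3l1 and Creb3l2 moved in opposite directions, and the 3 classical sensors were low everywhere. Of these 10 genes, 1 rose and 1 fell between ImC and MatC (5.41% and 2.29% of all genes). Between MatC and Bone 0 were called by edgeR (1.36% of all genes rose and 4.69% fell). Between ImC and Bone 3 rose and 1 fell (14.3% and 16.8% of all genes). Between MatC and Bone 2 were higher and 0 lower at an unadjusted p under 0.05 (22.7% of all genes in either direction). DESeq2 called Creb3l1 and Xbp1 higher there and 0 lower (4.76% and 9.07% of all genes). Creb3l1 (chr2:91982328-92024502) stood at 0.583, 0.397 and 1.21 CPM in ImC, on 7, 8 and 17 reads. It stood at 21.2, 92.8 and 6.22 CPM in MatC and at 183, 185 and 252 CPM in Bone. The groups did not overlap, and every Bone library was above every MatC library, but MatC spread widely. The log2 fold change was 5.80 ± 0.94 for MatC against ImC (edgeR adjusted p = 0.00823) and 8.15 ± 1.02 for Bone against ImC (edgeR adjusted p = 0.000629), and both calls held under all 17 alternatives tried. Bone against MatC gave 2.35 ± 0.76 (edgeR adjusted p = 0.0997), which was not called; without MatC replicate 2, with DESeq2 or with no filter on low counts it was. The order of the MatC libraries was also that of the summed osteoblast markers, at 9258, 29160 and 1906 CPM, and of the summed endothelial and osteoclast markers; the part of these cells in the MatC level was not tested.

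Creb3l2 (chr6:37327255-37442146) went the other way. It stood at 265, 242 and 274 CPM in ImC, 78.5, 62.0 and 80.0 CPM in MatC and 57.7, 50.3 and 44.1 CPM in Bone. Each group lay below the one before it without overlap, and the libraries within a group were close. The log2 fold change was -1.83 ± 0.25 for MatC against ImC (edgeR adjusted p = 0.00374) and -2.36 ± 0.25 for Bone against ImC (edgeR adjusted p = 0.00026). Scaling by library size only ended both calls, at adjusted p of 0.0572 and 0.0507 in edgeR, and no other alternative did. Between Bone and MatC the value was -0.53 ± 0.24 (edgeR adjusted p = 0.222), not called. Creb3, the third member of the family here, ran from 21.3 to 39.0 CPM over the 9 libraries, with no call; 15.2% of its exon bases overlap Tln1 on the other strand, and the library kit does not mark strand.

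**Figure D2:**
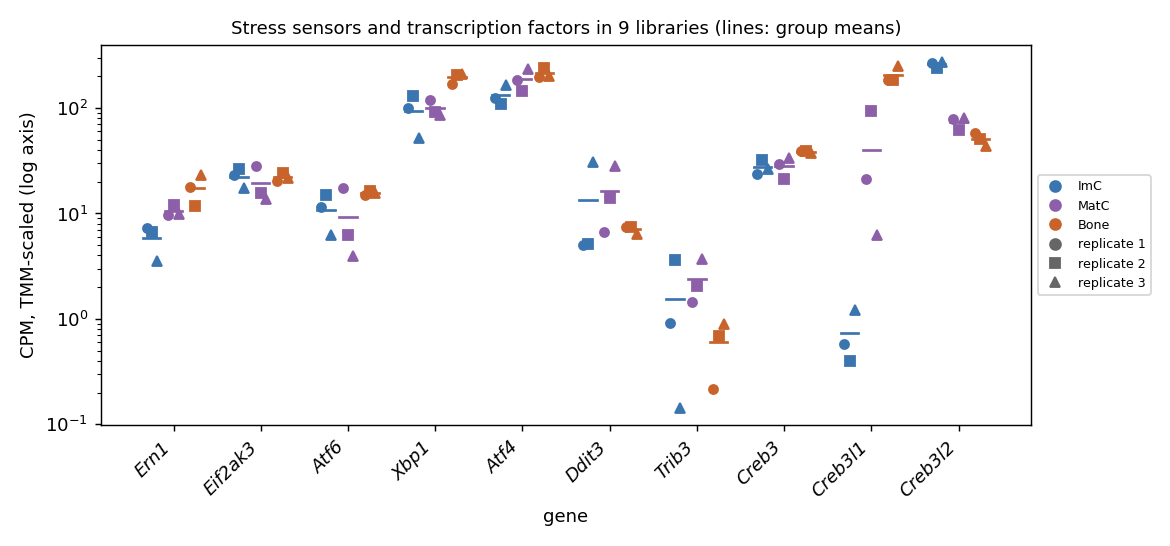
Level in CPM (y axis, log scale) of the 10 sensors and transcription factors in each library, with group means as lines. Creb3l1 climbs from about 1 CPM or less in ImC to above 180 in Bone, Creb3l2 falls from above 240 to below 60, and Ddit3 is high in ImC3 and MatC3.

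Of the branch genes of the unfolded protein response, Ern1 and Xbp1 rose in Bone against ImC and the others were not called. Ern1 (chr11:106394650-106487852), the sensor that splices Xbp1 RNA, stood at 7.25, 6.65 and 3.56 CPM in ImC, 9.70, 11.9 and 9.90 in MatC and 17.9, 11.9 and 23 in Bone. Bone lay above ImC without overlap, at a log2 fold change of 1.60 ± 0.38 (edgeR adjusted p = 0.0115); the call was lost without Bone replicate 3 and with library size only. Xbp1 (chr11:5520659-5525893), a transcription factor of secretory cells, stood at 99.7, 129.5 and 52.0 CPM in ImC, 119, 92.5 and 86.0 in MatC and 169, 204 and 212 in Bone. All 3 Bone libraries were above the other 6, and Bone against ImC gave 1.06 ± 0.34 (edgeR adjusted p = 0.0387). That call was lost with library size only and without ImC1, ImC3, MatC2 or any single Bone library, with adjusted p from 0.0083 to 0.183 over the 17 alternatives; without ImC3 and MatC3 together it held. Bone against MatC gave 0.98 ± 0.34 (edgeR adjusted p = 0.121). Gene counts do not separate spliced from unspliced Xbp1.

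The other branches were not called in any comparison. Eif2ak3 stood at 23.4, 26.4 and 17.5 CPM in ImC, 28.5, 15.7 and 13.9 in MatC and 20.5, 24.1 and 21.7 in Bone, with overlapping groups. Its effector Atf4 stood at 124, 109.7 and 166 CPM in ImC, 186, 146 and 236 in MatC and 197, 241 and 203 in Bone, and Bone against ImC gave 0.68 ± 0.28 (edgeR adjusted p = 0.0917); without ImC3 or without MatC3 it was called. Atf6, the sensor that is cut in the Golgi, stood at 11.5, 15 and 6.20 CPM in ImC, 17.4, 6.20 and 3.96 in MatC and 15.1, 16.3 and 15.6 in Bone. The stress effector Ddit3 (CHOP) did not follow the tissues. It stood at 5.00, 5.16 and 30.6 CPM in ImC, 6.75, 13.9 and 28.0 in MatC and 7.47, 7.45 and 6.42 in Bone, so that the 2 highest values of the series were those of ImC3 and MatC3. Trib3, a pseudokinase induced by Ddit3, stood at 0.916, 3.62 and 0.142 CPM in ImC, 1.44, 2.04 and 3.68 in MatC and 0.217, 0.685 and 0.901 in Bone, where it had 4, 8 and 16 reads. Its Bone libraries lay below all MatC libraries, at -1.94 ± 1.02 (edgeR adjusted p = 0.289), not called.

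The chaperones showed almost no difference that passed the test. Of the 15, 0 were called between MatC and ImC and 0 between Bone and MatC (7.71% and 6.05% of all genes). At an unadjusted edgeR p under 0.05 they were 0, and then 1 higher and 1 lower (24.9% and 22.7% of all genes in either direction). DESeq2 called 0 of the 15 between MatC and ImC (9.67% of all genes were higher and 6.03% lower). Between Bone and MatC it called Serpinh1 higher and Calr lower (4.76% and 9.07% of all genes). Between Bone and ImC, 1 of the 15 rose and 0 fell, against 14.3% and 16.8% of all genes. The median log2 fold changes were 0.30, -0.18 and -0.03 in that order; with library size only they were -0.21, 0.70 and 0.39, while that scaling moved the median of all genes by -0.54, 0.98 and 0.48. Serpinh1 (chr7:99345376-99353239), the collagen chaperone, was the gene that rose. It stood at 1744, 1142 and 1417 CPM in ImC, 1484, 1823 and 1257 in MatC and 3063, 3362 and 2551 in Bone. Every Bone library was above every cartilage library, and Bone against ImC gave 1.06 ± 0.32 (edgeR adjusted p = 0.0311). The call was lost without ImC1, without ImC2, without any single Bone library, with library size only, with no filter on low counts and with the replicate number as a block, at adjusted p up to 0.103. Per kilobase of exon, Serpinh1 had the highest mean level of the 40 genes in each tissue, at 587, 623 and 1225 CPM per kilobase in ImC, MatC and Bone.

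The general chaperones Hspa5, Hsp90b1 and Calr were not called between Bone and MatC by edgeR. Hspa5 (chr2:34771970-34777547), which binds unfolded proteins and holds the sensors inactive, stood at 878, 571 and 226 CPM in ImC, 1002, 407 and 863 in MatC and 333, 371 and 376 in Bone. The ImC libraries spanned a wide range, and all Bone libraries were below all MatC libraries, at -1.07 ± 0.49 (edgeR adjusted p = 0.223). Hsp90b1 (GRP94) stood at 589.6, 465 and 231 CPM in ImC, 663, 411 and 544 in MatC and 269.9, 358 and 327 in Bone, in the same arrangement, and 10.3% of its exon bases overlap the pseudogene 1810014B01Rik on the other strand. Calr, the soluble lectin chaperone, stood at 360.4, 238 and 375 CPM in ImC, 299, 341 and 561 in MatC and 178, 185 and 229 in Bone, and its Bone libraries lay below both other groups, at -1.02 ± 0.33 against MatC (edgeR adjusted p = 0.0969) and -0.71 ± 0.33 against ImC (edgeR adjusted p = 0.118). With library size only, 14 of the 15 chaperones were higher in Bone than in MatC, against 5 of 15 with TMM factors; the chaperone median moved from -0.18 to 0.70 and that of all genes by 0.98.

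The remaining chaperones were not called in any comparison. Canx, the membrane-bound lectin chaperone, ran from 105 CPM in ImC3 to 416 in MatC1. The disulfide isomerases Pdia3, Pdia4 and Pdia6 gave Bone against ImC values of 0.88, -0.20 and 0.06 on the log2 scale, and P4hb, which is also a subunit of collagen prolyl hydroxylase, gave 0.20. P4hb stood at 1172, 1264 and 496 CPM in ImC and 1129, 1158 and 1073 in Bone. The Hspa5 partners Dnajb9, Dnajb11 and Dnajc3 gave 1.46, 0.32 and -0.09. Dnajb9 rested on 1 read in ImC3, against 96 and 318 reads in the other ImC libraries. Herpud1, which serves degradation, gave -0.03, Sdf2l1 gave -0.42, and the secreted factor Manf gave 0.65. For 30 of the 40 members the lowest ImC level was that of ImC3, against 43.6% of all genes tested. Without ImC3 the median chaperone difference between MatC and ImC was 0.06 instead of 0.30.

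Of the 15 entry, export and retrieval genes, 7 rose in Bone against ImC and 2 against MatC (14.3% and 1.36% of all genes). All 15 had positive log2 fold changes in both comparisons of Bone, with a median of 0.61 against MatC and 1.02 against ImC. The groups did not overlap for 13 of the 15 against ImC and for 12 of the 15 against MatC; over all genes tested, higher groups without overlap were 30.1% and 17.9%. For all 40 members such counts were 23 higher and 2 lower against ImC (28.8% of all genes were lower) and 16 higher and 5 lower against MatC (17.7% lower). Between MatC and ImC the counts were 5 higher and 2 lower, against 11.4% and 12.5% of all genes. Leaving out ImC3 lowered the median against ImC to 0.71 with 7 of the 15 called. Between MatC and ImC 0 of the 15 were called by edgeR (5.41% of all genes were higher and 2.29% lower). At an unadjusted p under 0.05, 3 were higher and 0 lower (24.9% of all genes in either direction). DESeq2 called Kdelr3 higher and 0 lower (9.67% and 6.03% of all genes). In the comparisons of Bone 0 of the 15 were lower, also at an unadjusted p and by DESeq2. Of all genes, edgeR called 16.8% lower against ImC and 4.69% against MatC, and DESeq2 called 20.4% and 9.07%.

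The outer coat genes and 1 gene of the entry channel rose in Bone against ImC. Sec13 (chr6:113728062-113740743), an outer coat protein, stood at 62.6, 59.6 and 35.8 CPM in ImC, 119.5, 69.9 and 95.6 in MatC and 169, 208 and 159 in Bone. The tissues did not overlap, and Bone against ImC gave 1.76 ± 0.32 (edgeR adjusted p = 0.0034), called under all 17 alternatives. Sec31a (chr5:100361649-100416234), its partner, stood at 135, 177 and 133 CPM in ImC, 146, 216 and 80.9 in MatC and 508, 393 and 477 in Bone. The cartilages overlapped and Bone lay above both, at 1.63 ± 0.36 against ImC (edgeR adjusted p = 0.00858) and 1.64 ± 0.36 against MatC (edgeR adjusted p = 0.0281). Without MatC replicate 1 or any single Bone library the call against MatC was lost. Sec61b (chr4:47474658-47483242), a small subunit of the channel, stood at 186, 209 and 132 CPM in ImC, 269, 182 and 143 in MatC and 435, 539 and 426 in Bone. It was higher in Bone by 1.41 ± 0.32 against ImC (edgeR adjusted p = 0.0095) and 1.23 ± 0.32 against MatC (edgeR adjusted p = 0.0491). The call against MatC was lost without ImC1, ImC2, MatC2, MatC3 or any single Bone library, at adjusted p up to 0.194. Sec61a1, the pore of the same channel, did not follow it, at 0.02 for Bone against ImC. Ssr1, of the complex beside the channel, gave 0.79 ± 0.41 (edgeR adjusted p = 0.163).

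Of the inner coat genes, Sec24d and Sec23a rose in Bone against ImC, and Sec24c and Sec23b were not called. Sec24d (chr3:123267455-123365641), which selects cargo, stood at 48.8, 64.3 and 18.4 CPM in ImC, 105, 67.5 and 45.8 in MatC and 208, 152 and 199 in Bone. Bone against ImC gave 2.09 ± 0.46 (edgeR adjusted p = 0.00856), while its relative Sec24c gave 0.32. Against MatC Sec24d gave 1.36 ± 0.45 (edgeR adjusted p = 0.109), and it was called there by DESeq2, with no filter on low counts, in a fit of those 2 groups only, and without ImC3. Sec23a (chr12:58958383-59012017) stood at 76.9, 81.0 and 21.4 CPM in ImC, 213, 99.8 and 118 in MatC and 215, 243 and 236 in Bone. Each tissue lay above the one before it without overlap. An antisense gene, Gm17529, overlaps 8.9% of its exon bases. Sec23a rose by 1.95 ± 0.48 between ImC and Bone (edgeR adjusted p = 0.0138), and the step from ImC to MatC was 1.27 ± 0.48 (edgeR adjusted p = 0.135). Sec23b gave 0.98 ± 0.42 (edgeR adjusted p = 0.0992) for Bone against ImC. The GTPases Sar1a and Sar1b, which start coat assembly, gave 0.64 ± 0.24 (edgeR adjusted p = 0.0632) and 1.02 ± 0.47 (edgeR adjusted p = 0.118). DESeq2 called Sar1a, as did the fits without MatC3.

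The receptors of the pathway gave a mixed result. Kdelr2 (chr5:143403838-143421901) and Kdelr3 (chr15:79516411-79527739) return escaped chaperones from the Golgi. Kdelr2 stood at 369, 341 and 124 CPM in ImC, 513, 400.1 and 293 in MatC and 634, 739 and 642 in Bone, and rose by 1.27 ± 0.41 against ImC (edgeR adjusted p = 0.0397). That call was lost without MatC2 or any single Bone library. Kdelr3 stood at 66.7, 68.8 and 52.6 CPM in ImC, 134, 97.0 and 113 in MatC and 127, 232 and 165 in Bone, and rose by 1.48 ± 0.29 (edgeR adjusted p = 0.00559). Both cartilages were separate from each other for Kdelr3, at 0.87 ± 0.29 (edgeR adjusted p = 0.1), which was not called. Mia3 (TANGO1), which lets bulky procollagen leave the endoplasmic reticulum, stood at 83.7, 82.3 and 58.9 CPM in ImC, 54.6, 71.9 and 71.8 in MatC and 92.6, 88.4 and 94.0 in Bone, and gave 0.29 ± 0.25 (edgeR adjusted p = 0.394). The glycoprotein receptor Lman1 gave 0.61 ± 0.29 (edgeR adjusted p = 0.137). Scaling by library size only ended the calls of Sec31a, Sec61b, Sec24d, Sec23a, Kdelr2 and Kdelr3 and left that of Sec13.

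**Figure D3:**
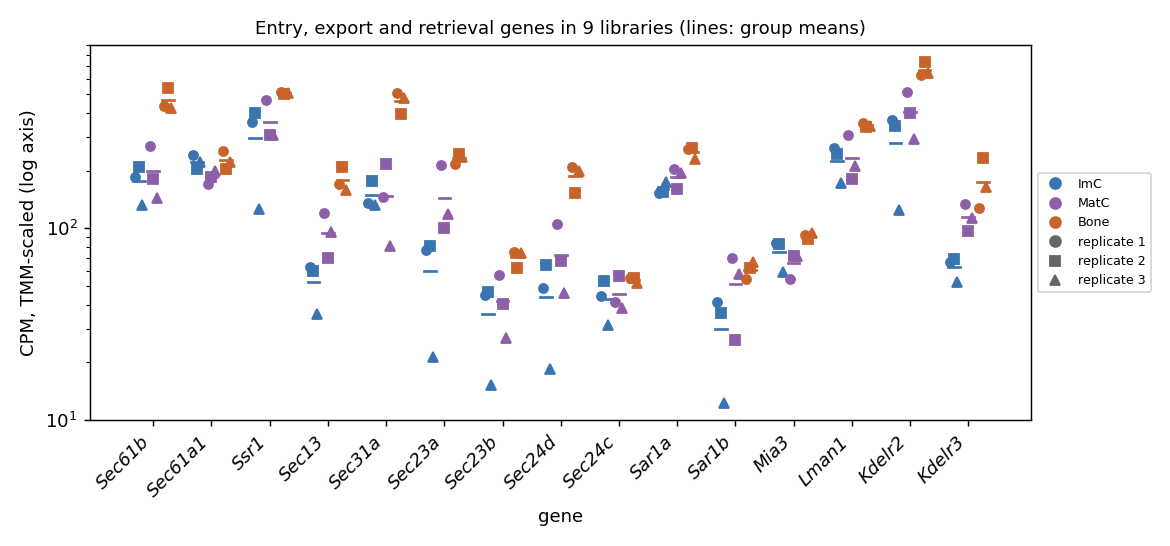
Level in CPM (y axis, log scale) of the 15 entry, export and retrieval genes in each library, with group means as lines. The Bone libraries are the highest for most genes, clearly so for Sec31a, Sec24d and Sec61b, while Sec61a1, Sec24c and Mia3 differ little between tissues.

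Markers of other cells also differed between the tissues, and not all were highest in Bone. Summed osteoclast markers were 22.6 to 51.2 CPM in ImC, 80.6 to 669 in MatC and 528 to 1153 in Bone, with 8 of 10 called higher in Bone against ImC. Summed macrophage and leukocyte markers were 11.6 to 32.1 CPM in ImC, 28.0 to 111.5 in MatC and 53.8 to 135 in Bone. Endothelial markers were 5.51 to 25.9, 24.0 to 329.8 and 64.3 to 197 CPM. In Bone against ImC, 9 of 11 and 9 of 12 tested were called higher (14.3% of all genes). In MatC against ImC, 4 of 10 osteoclast, 5 of 11 macrophage and leukocyte and 8 of 12 endothelial markers were called higher (5.41% of all genes). Between Bone and MatC edgeR called 0 markers of these types, with median log2 fold changes of 1.66, 0.23 and -0.16 in that order. DESeq2 called 1 osteoclast and 1 macrophage and leukocyte marker higher there (4.76% of all genes). Erythroid markers reached 9212 CPM in Bone and were 9.75, 21.0 and 1424 CPM in ImC, the last value that of ImC3. In MatC they were 874 to 3505 CPM. Of 7 tested, edgeR called 2 higher in Bone against ImC (14.3% of all genes) and DESeq2 called 4 (19.2%). At an unadjusted edgeR p under 0.05, 6 were higher (43.6% of all genes in either direction). All 7 were higher in Bone than in ImC without overlap (30.1% of all genes). Plasma and B cell markers, of cells with a large secretory apparatus, summed to 6.27 CPM or less in every library, and Ms4a1 had 0 reads in all 9. The sums were 0 to 0.596 CPM in ImC, 1.70 to 6.27 in MatC and 3.14 to 3.77 in Bone. Only 1 of these 10 markers passed the filter on low counts. It was called higher in MatC and in Bone against ImC, at log2 fold changes of 8.13 and 8.21. Skeletal muscle markers summed to 16.7 to 47.3 CPM in ImC, 33.0 to 334.7 in MatC and 7.02 to 87.7 in Bone. All 9 tested were negative in Bone against MatC, with a median of -2.24. There edgeR called 0 higher and 1 lower (1.36% and 4.69% of all genes). In MatC against ImC 2 were called higher (5.41% of all genes). In Bone against ImC 1 was higher and 1 lower (14.3% and 16.8%). The part of the other cell types in the differences of the secretory genes was not tested.

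The UPRE windows printed above belong to genes called higher in Bone against ImC. Of the 12 entry, export and retrieval genes with a promoter entry, 6 rose in that comparison (14.3% of all genes). UPRE was found in 3 of those 6 and in 0 of the other 6. Against MatC 2 of the 12 rose in Bone (1.36% of all genes), and UPRE was found in 0 of those 2. Between ImC and MatC 0 of the 12 rose (5.41% of all genes). Of the 14 chaperones with a promoter entry, 1 rose in Bone against ImC. Of the 6 with ERSE, 0 rose. These counts were made after the values were seen and are a description only.

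Ratios of paralogues within a library do not depend on the scaling between libraries, so 5 pairs were compared on log2 ratios of reads with 0.5 added to each. The members were chosen with earlier results of these data known. The ratios also use the same reads as the calls above, so their p-values give no independent support to those calls. An exact permutation test of the F statistic over the 3 tissues used all 1680 arrangements, with p-values adjusted over the 5 pairs; it tests the tissues together and not any single pair of them. The log2 ratio of Creb3l1 to Creb3l2 was -8.56 ± 0.71 (SD, n = 3) in ImC, -1.65 ± 2.13 in MatC and 2.02 ± 0.44 in Bone (exact permutation p = 0.00357, adjusted 0.0178). Creb3l2 reads outnumbered those of Creb3l1 in every ImC library, and Creb3l1 reads were in excess in every Bone library. MatC was divided, at -1.88, 0.58 and -3.66. For Sec24d to Sec24c the ratio was -0.12 ± 0.57 in ImC, 0.61 ± 0.63 in MatC and 1.78 ± 0.27 in Bone (exact permutation p = 0.0107, adjusted 0.0268). With 8 libraries that adjusted p reached 0.0893, the value without ImC3, and it also passed 0.05 without ImC1, without MatC1 and without any single Bone library. For Sec23a to Sec23b the ratio was 0.68 ± 0.18 in ImC, 1.78 ± 0.43 in MatC and 1.72 ± 0.24 in Bone (exact permutation p = 0.0321, adjusted 0.0535), so it missed the threshold; without MatC2 or MatC3 the adjusted p was 0.0178 or 0.0477. The 2 cartilages did not overlap in that ratio, while MatC and Bone did. Sar1b to Sar1a and Kdelr3 to Kdelr2 gave adjusted exact permutation p of 0.745 and 0.796. Paralogues share sequence, and how the authors treated reads that fit more than 1 gene is not given in the sources used here.

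**Figure D4:**
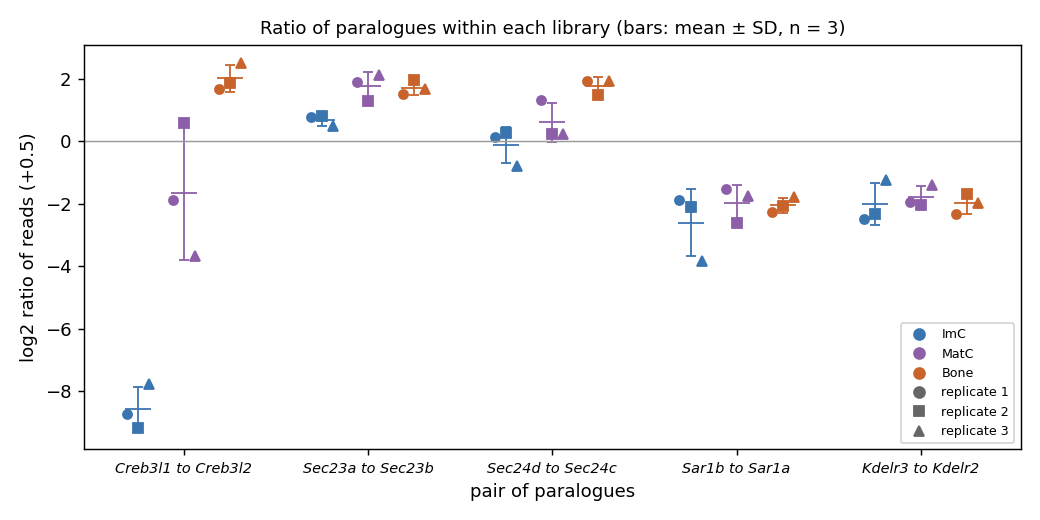
Log2 ratio of reads (y axis) of 5 paralogue pairs (x axis) in each library, with mean ± SD of 3 libraries per tissue. The ratio of Creb3l1 to Creb3l2 moves from about -8.6 in ImC to about 2 in Bone, and the MatC libraries are spread between; the Sar1 and Kdelr pairs overlap between all tissues.

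Summed over each role, the export genes of every Bone library lay above those of every cartilage library, while the chaperone sums overlapped. The 15 entry, export and retrieval genes summed to 2175, 2221 and 1329 CPM in ImC, 2866, 2157 and 1995 CPM in MatC and 3954, 4081 and 3894 CPM in Bone. The 15 chaperones summed to 6400, 5181 and 3333 CPM in ImC, 6920, 5037 and 5740 CPM in MatC and 6644, 7011 and 6268 CPM in Bone, with overlap between all tissues. The ratio of both sums within a library was 0.340 to 0.429 in cartilage and 0.582 to 0.621 in Bone. Leaving Serpinh1 out of the chaperones, it was 0.445 to 0.694 in cartilage and 1.05 to 1.12 in Bone. Secreted matrix transcripts, a list of 19 collagens and other matrix genes, summed to 19830 to 23600 CPM in ImC, 29900 to 42430 CPM in MatC and 92610 to 110200 CPM in Bone. Per CPM of chaperone they gave 3.65 to 7.08 in ImC, 4.32 to 8.42 in MatC and 14.8 to 15.7 in Bone. The sum is weighted to the most abundant genes and does not stand for the list as a whole. Of the 19, 7 were called higher and 8 lower in Bone against ImC (14.3% and 16.8% of all genes), as given below. No test was made of these sums.

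**Figure D5:**
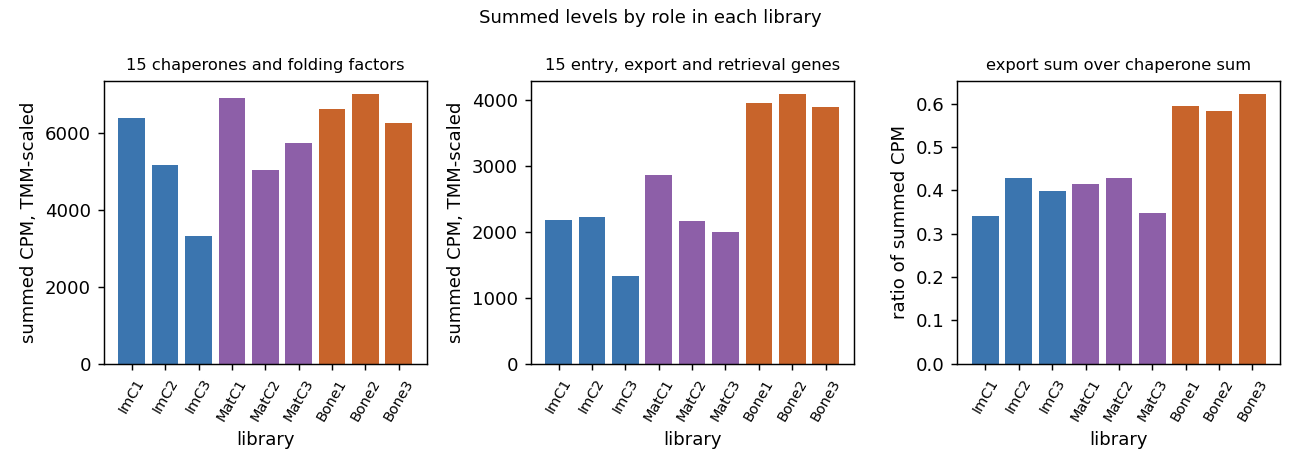
Summed CPM (y axes) of the 15 chaperones, of the 15 entry, export and retrieval genes, and the ratio of the sums, as 1 bar per library. The chaperone bars overlap between tissues, ImC3 being the lowest at 3333 CPM, while all Bone bars stand above all cartilage bars for export and for the ratio.

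Further genes of the pathway, taken from 6 lists that hold none of the 40, were called mostly in Bone against ImC, where 35 rose and 6 fell. Of all genes tested, 14.3% were called higher and 16.8% lower in this comparison. The calls over all genes were also mostly there, at 31.1%, against 7.71% for MatC against ImC and 6.05% for Bone against MatC. Without Bone replicate 1, 2 or 3 the number that rose was 19, 19 and 18; with library size only it was 10, with 0 lower. The number that fell was 3, 2 and 3 without those libraries and 3 without ImC1. Of 25 tested genes of the translocon, signal peptidase and glycosylation, 9 rose and 2 fell, with a median of 0.95. The signal peptidase subunit Sec11c rose by 1.83, and the translocon partners Ssr4 and Ssr2 by 1.68 and 1.79. Tram2 and Sec61a2 fell, at -1.53 and -1.73. Of 23 cargo receptor and COPI genes, 7 rose and 0 fell, with a median of 0.66, with 0 lower also at an unadjusted p and by DESeq2, led by Ergic3 at 1.88, Mcfd2, the partner of Lman1, at 1.31, and Arf4 at 2.15. Of 15 further COPII and exit site genes, 5 rose and 0 fell (6 higher and 0 lower at an unadjusted p and by DESeq2), with a median of 0.32, among them Yif1a at 1.54, Bet1 at 2.33 and Tfg at 1.74. The medians stand beside -0.02 for all genes tested. Of the 24 calls named for the 6 lists in Bone against ImC, 9 held under all 17 alternatives, among them Bet1, Chac1, Creb3l3, Ergic3, Fkbp7, Rcn3, Sec11c and Ssr4.

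The folding, degradation and stress lists held calls in both directions. Over all genes tested, 14.3% were called higher and 16.8% lower in Bone against ImC. Of 27 further folding enzymes, 8 rose and 1 fell between ImC and Bone, with a median of 0.48. The prolyl isomerase Fkbp7 stood at 11.5, 15.8 and 1.78 CPM in ImC, 80.3, 41.0 and 25.5 in MatC and 125, 191 and 147 in Bone, a rise of 3.99. Rcn3 and Erp29 rose by 1.44 and 1.26, and Uggt1, which checks glycoprotein folding, fell, at -0.76. Of 17 genes for the degradation of misfolded proteins, 3 rose, among them Erlec1 at 1.43 and Vimp at 0.92, and 1, Sel1l, fell, at -0.83. Of 20 further stress response genes, 3 rose and 2 fell, with a median of 0.12. Creb3l3 and Nfe2l2 rose, at 4.96 and 1.66, and Creb3l4 and the oxidase Ero1l fell, at -3.26 and -1.69. Chac1 also rose but had 2 reads in all of ImC and 86 in Bone, a ratio of 41.5 with a 95% counting interval of 11.1 to 348. Intervals cover counting error only. The calls of Sel1l, Uggt1, Vimp, Ero1l and Nfe2l2 were lost without any single Bone library, that of Arf4 without Bone1 or Bone3 and that of Sec61a2 without Bone2. Those of Sel1l and Vimp were also lost without any single ImC library, that of Uggt1 without ImC1 or ImC3 and that of Ero1l without ImC1 or ImC2.

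Between the other tissues these 6 lists gave few calls. MatC against ImC had 3 higher and 1 lower (5.41% and 2.29% of all genes). Bet1 and Sec11c were among the higher, at 1.76 and 1.28, and the lower was Tram2 at -1.33. Bone against MatC had 5 higher and 0 lower (1.36% and 4.69% of all genes). The 5 were Ergic3, Cope, Sec16b, Rcn3 and Krtcap2, at 1.30, 0.88, 2.03, 1.15 and 1.14. None of these 9 calls held under all 17 alternatives, and each was lost without at least 1 Bone library. DESeq2 called 7 higher and 1 lower between MatC and ImC (9.67% and 6.03% of all genes). Between Bone and MatC it called 15 higher and 1 lower (4.76% and 9.07% of all genes).

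The cargo genes of the pathway moved in both directions. Of 19 matrix genes, 7 rose and 8 fell between ImC and Bone (14.3% and 16.8% of all genes), with a median of 0.00. Col1a2 stood at 303, 146 and 423 CPM in ImC, 4412, 10990 and 399 in MatC and 44830, 51460 and 41640 in Bone, and Col2a1 at 8396, 4769 and 8400 in MatC and 682, 388 and 297 in Bone. MatC3 held the least Col1a2 of its group and also the least Creb3l1.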

How the data were processed

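RNA sequencing of 9 mouse libraries was analysed from the authors' deposited table of raw counts, whole reads per gene symbol. Per the labels' protocols, RNA was purified, treated with DNase, amplified for 1 round and made into Illumina TruSeq v2 libraries, which do not mark strand. The authors' tools, per the submitters' processing notes, were among others HTSeq, edgeR, Bowtie2, TopHat2 and Trimmomatic 0.30, with the mm10 build; settings are not given in the sources used here. A deposited table of normalized values was not used.

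Groups and replicate numbers came from the library titles. Counts were tested with the quasi-likelihood test of edgeR 4.0.16 in R 4.3.3, with filterByExpr at a minimum count of 10, TMM factors, 1 fit of all 9 libraries and Benjamini-Hochberg adjustment over 14257 genes. Standard errors (SE) were taken from the F statistic, as the size of the log2 fold change divided by its root. The test was checked on simulated counts. Alternatives were DESeq2 1.42.0, other scalings and filters, a replicate block and each library left out. Members and lists were chosen with earlier results of these data known. All called members are named, and of other lists up to 3 called genes per comparison and direction with the smallest p; Col1a1, Col1a2, Col2a1, Col10a1 and Bglap were added as tissue markers, and Ms4a1 as a cell marker. Some genes that the rule names are not reported here. Coordinates come from GENCODE M21 (GRCm38, the assembly behind mm10), and promoters from RefSeq. In 13 of the 40 members exons overlap another annotated gene. All replicate pairs differed by more than sampling noise.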

Additional observations from a re-analysis of the deposited data

How the results depend on the processing

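Of the 12 members called in Bone against ImC, 2 (Creb3l1 and Sec13) held under all 17 alternatives, as did 1 of 2 in MatC against ImC (Creb3l1) and 0 of 2 in Bone against MatC. Over all settings 115 of 2040 member values changed sign, none of them called, and 34 of these changed with scaling by library size only. That scaling moved the median of all genes by -0.54 for MatC against ImC, by 0.98 for Bone against MatC and by 0.48 for the comparison of Bone with ImC. It called 358, 297 and 2073 genes in that order, with 0 members lower in MatC against ImC, 0 higher in Bone against MatC, and 2 higher and 0 lower in Bone against ImC. DESeq2 called 2229 genes in MatC against ImC, with 2 members higher, and 1964 in Bone against MatC, with 7 higher and 1 lower. With no filter on low counts 1690 and 1504 genes were called in those comparisons, with 4 members higher in Bone against MatC. A fit of the 2 groups compared gave 205 genes in MatC against ImC and 4 members higher in Bone against MatC. Leaving out ImC3 and MatC3 together, chosen after seeing the data, gave 1908 and 1605 genes in those comparisons and 4 members higher in Bone against MatC, and in Bone against ImC 14 higher. The settings were applied to the other pathway lists also after seeing the data. The cause of these shifts was not tested.

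With each library left out in turn, 355 to 1240 genes were called in MatC against ImC, 167 to 1702 in Bone against MatC and 2343 to 5408 in Bone against ImC. Members called higher were 1 throughout, 0 to 5, and 7 to 13 in that order. The median difference of the members from all genes ran from -0.03 to 0.38, 0.20 to 0.49 and 0.45 to 0.63. The Bone less ImC difference in log2 paralogue ratio ran from 10.28 to 10.97 for Creb3l1 to Creb3l2, 1.57 to 2.10 for Sec24d to Sec24c, 0.91 to 1.14 for Sec23a to Sec23b, -0.05 to 0.93 for Sar1b to Sar1a and -0.21 to 0.41 for Kdelr3 to Kdelr2.

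Same-numbered libraries correlated at -0.13 to 0.24 in their deviations from group means. For ImC with MatC the values were 0.23, -0.04 and 0.24 for replicates 1, 2 and 3. Libraries of unlike number were not compared in this way, so the check cannot exclude pairing. The numbers were not used as pairs in the main fit, since no label says that they mark a shared animal or batch. With the replicate number as a block, 725 genes were called in MatC against ImC instead of 1099, and of the members Serpinh1 lost its call in Bone against ImC. At this depth 3 reads are worth 0.849 CPM in MatC3, so low levels there were not measurable.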

Other observations

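Serpinh1 and Hspa5, the collagen chaperone and the general chaperone, differed in their ratio between libraries of 1 tissue as well as between tissues. The reads of Serpinh1 per read of Hspa5 were 1.99, 2.0 and 6.27 in ImC replicates 1, 2 and 3, 1.48, 4.48 and 1.46 in MatC, and 9.19, 9.06 and 6.77 in Bone. All Bone libraries were above all cartilage libraries in this ratio, which was chosen after its values were seen and was not tested.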
